A study of Mus musculus with 3 samples.

Results

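The 6 genes described here, *Cd34*, *Pi16*, *Dpp4*, *Clec3b*, *Dpt* and *Mfap5*, were chosen by name as genes of adventitial fibroblasts, and they are 6 of 31053 genes counted. They were followed in droplet libraries of single cells from the mouse iridocorneal angle and limbus, the ring where cornea, sclera and iris meet. Control mice were *Angpt1* flox/flox. *Angpt1*ΔNC mice were *Angpt1* flox/flox;Wnt1Cre+, in which the Wnt1 promoter drives Cre in the neural crest, so that its descendants, the stroma and trabecular meshwork among them, lose angiopoietin 1, while endothelium and surface epithelium do not derive from it. All mice were of mixed strain, crossed over 2 generations to ICR for albino litters, and were 6 weeks old. Eyes were pooled from 2 to 3 mice per library. There were 2 control libraries (control replicates 1 and 2) and 1 *Angpt1*ΔNC library, so a difference between the genotypes cannot be told apart from a difference between pools. Levels are means over cells of unique molecular identifiers (UMIs) per 10,000 UMIs of the cell, in the cell labels that the authors deposited.

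Adventitial fibroblasts are the loose, vessel-sheathing and organ-capping connective tissue cells found in most tissues. CD34, a sialomucin on the surface of blood progenitors and of blood vessel endothelium as well, marks these cells, and DPP4 is a surface peptidase of the same population. PI16 is a secreted or membrane-linked peptidase inhibitor, CLEC3B (tetranectin) binds plasminogen, DPT (dermatopontin) binds decorin and helps collagen fibrils assemble, and MFAP5 (MAGP-2) belongs to the fibrillin microfibrils. In GRCm38, all as protein-coding genes of GENCODE M21, *Dpt* lies at chr1:164796644-164824266, *Cd34* at chr1:194938819-194961279, *Dpp4* at chr2:62330073-62412231, *Mfap5* at chr6:122505845-122529290, *Clec3b* at chr9:123150946-123157432 and *Pi16* at chr17:29317680-29330593.

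Promoters of 4 of the 6 genes were found in the RefSeq promoter table (GRCm38.p6), each with 250 bases before and 50 bases after the transcript start. The 3 below are shown because the genotype differences of these genes varied between stromal labels. Capitals mark the letters CANNTG, the E-box bound by basic helix-loop-helix factors, which read the same on both strands. The *Dpt* promoter is chr1:164796413-164796712, that of *Pi16* chr17:29318632-29318931 and that of *Cd34* chr1:194938571-194938870, all on the plus strand. That of *Pi16* lies wholly within the GENCODE span of the gene given above, and so downstream of the gene's first annotated base.
Dpt: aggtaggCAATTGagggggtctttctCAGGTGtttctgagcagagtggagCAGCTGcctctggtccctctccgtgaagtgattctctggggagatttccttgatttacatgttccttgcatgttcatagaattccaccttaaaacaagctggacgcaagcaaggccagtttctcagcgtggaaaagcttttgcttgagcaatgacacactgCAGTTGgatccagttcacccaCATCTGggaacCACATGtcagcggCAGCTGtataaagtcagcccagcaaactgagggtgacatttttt
Pi16: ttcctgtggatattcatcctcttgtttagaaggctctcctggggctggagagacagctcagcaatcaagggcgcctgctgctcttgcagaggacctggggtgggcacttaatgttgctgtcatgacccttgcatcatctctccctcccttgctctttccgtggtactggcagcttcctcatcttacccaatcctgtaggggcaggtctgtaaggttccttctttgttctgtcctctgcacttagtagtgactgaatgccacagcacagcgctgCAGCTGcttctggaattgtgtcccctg
Cd34: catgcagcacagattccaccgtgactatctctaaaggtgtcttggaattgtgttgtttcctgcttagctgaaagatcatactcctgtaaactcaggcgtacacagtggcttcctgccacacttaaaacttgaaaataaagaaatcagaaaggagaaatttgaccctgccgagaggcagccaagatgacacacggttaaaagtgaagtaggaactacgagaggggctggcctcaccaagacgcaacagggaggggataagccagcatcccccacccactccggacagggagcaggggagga
The letters occurred 7 times in the *Dpt* promoter, 1 time in those of *Pi16* and *Dpp4*, and 0 times in that of *Cd34*. Of 32851 promoters in the table, 72.3% held at least 1 match and 0.177% held at least 7. A match is a string of letters and not a measured site.

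The kept cells numbered 9076 and 10160 in the controls and 6772 in *Angpt1*ΔNC, with medians of 6329.5, 6393.5 and 7444 UMIs per cell. *Angpt1* stood at 37.8 and 39.3 UMIs per 1000000 UMIs in the controls and at 0.391 in *Angpt1*ΔNC, as the labels say. Between 13 and 25 kept cell barcodes were shared by each pair of libraries. Although both sexes were said to be pooled, *Xist* was at 0.039 and 0.0249 in the same unit in the controls and at 652 in *Angpt1*ΔNC, and 0% of control stromal cells but 57.9% of those of *Angpt1*ΔNC were typed female from *Xist* and Y-linked UMIs.

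The stromal label TM10 ranked 1 in both controls for *Cd34*, *Pi16*, *Clec3b* and *Mfap5*, 2 for *Dpp4*, and 2 or 3 for *Dpt*. TM10 held 194, 167 and 188 cells in control 1, control 2 and *Angpt1*ΔNC. The 5 general fibroblast markers summed there to 256.0, 277.6 and 353.2 UMIs per 10,000. The sums were 260.3, 269.2 and 351.6 over all stromal labels and 855.9, 932.7 and 813.0 in TM1. *Dcn*, the collagen-binding proteoglycan decorin, was at 134, 139 and 158 in TM10, which ranked 9 among the labels for it. Markers of vessels and immune cells were scarce, and those of other stromal cells were in part present. The 5 blood endothelial markers summed to 0.349, 0.294 and 0.507, and the 5 immune markers to 0.0238, 0.101 and 0.0325. The 5 keratocyte markers summed to 19.6, 20.4 and 16.7. Most of it was *Lum*, the proteoglycan lumican, at 15.8, 16.7 and 15.8, while *Kera*, keratocan, was at 1.53, 1.24 and 0.187. *Myoc*, a trabecular meshwork gene, was at 7.95, 8.37 and 4.30 in TM10, about the level of *Cd34* in the controls. *Pdpn*, podoplanin, of the lymphatic list, was found in 69.8% of TM10 cells, while *Lyve1* of that list was at 0 in each library. The labels came from clustering in which these genes took part, so differences between labels are a description and were not tested.

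*Cd34* was at 9.05 and 7.96 UMIs per 10,000 in TM10 of the controls and at 8.42 in *Angpt1*ΔNC. It was the one gene of the 6 with a second home in vessels. The endothelial labels followed, with 4.29, 4.96 and 4.46 in EC3, 3.13, 4.78 and 4.75 in EC2, 2.53, 3.43 and 3.81 in Schlemm's canal (SC) and 2.31, 3.62 and 1.93 in EC4. In the controls, the range of TM10 lay above that of EC3, while EC3, EC2, SC and EC4 each overlapped the next. Below them came cluster 13, which the study placed in the corneal stroma, with 1.71, 2.25 and 1.88, and the stromal label TM7 with 1.52, 1.04 and 0.304. A UMI of *Cd34* was found in 89.2, 91.6 and 93.1% of TM10 cells and in 0.506, 0.494 and 0.329% of limbal and corneal epithelial cells (labels 4 and 5), taken here as the background level. Whether those UMIs came from free RNA was not tested. The epithelial cells were the deeper ones, with medians of 17717, 15168.5 and 15135 UMIs against 6622, 6645 and 8135 in TM10. With every cell thinned to 2000 UMIs, the shares in TM10 were 73.0, 73.2 and 72.4%. All 3 libraries thus gave close to the same share at equal depth.

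*Dpp4* was scarce everywhere. It reached 0.739, 0.930 and 0.390 UMIs per 10,000 in cluster 7, the ciliary epithelium by the study's naming, and 0.691, 0.499 and 0.804 in TM10, followed by 0.361, 0.431 and 0.715 in the retinal pigment epithelium (cluster 1). The cluster 1 cells held that epithelium's markers *Ttr*, *Rpe65* and *Rgr* at a sum of 1061, 932 and 392; for ciliary epithelium no marker list was set. In TM10 a UMI of *Dpp4* was found in 25.3, 20.96 and 35.1% of cells, against 1.42, 1.78 and 0.878% of epithelial cells. In the EC3 endothelium it was found in 0 of 118, 0 of 118 and 0 of 58 cells, which allows shares of up to 2.54, 2.54 and 5.17%. Intervals and limits of this kind cover counting error only.

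Of the secreted products, *Pi16* varied most between the controls in TM10, at 19.997 and 13.4 UMIs per 10,000, and stood at 26.2 in *Angpt1*ΔNC. Its next levels were 5.36, 5.44 and 1.17 in cluster 13, 4.12, 4.43 and 0.663 in TM4, the label with the most *Myoc*, and 3.51, 3.68 and 2.19 in TM7. In all 3 of these labels the *Angpt1*ΔNC library lay below both controls, and in TM10 it lay above both. The share of TM10 cells with a UMI of *Pi16* was 75.8, 67.7 and 80.9%, and 70.8, 57.3 and 72.4% at 2000 UMIs. Epithelial cells had 0.303, 1.09 and 1.10%.

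*Clec3b* was the gene most confined to TM10 in level, at 13.004, 12.4 and 22.8 UMIs per 10,000, and ranked 1 of all genes by its fold over all other control cells. TM11, another stromal label, held 4.35, 4.22 and 3.71, and cluster 13 held 0.901, 1.42 and 1.13. A UMI was found in 89.2, 93.4 and 97.9% of TM10 cells and in 76.4, 79.0 and 94.1% at 2000 UMIs. Epithelial cells had 0.404, 1.09 and 1.76%, the *Angpt1*ΔNC library being highest in this background as well.

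*Dpt* was the gene whose leading label differed by library. In TM1, the keratocyte label, it was at 6.61, 4.90 and 2.06 UMIs per 10,000, in TM10 at 3.74, 3.60 and 6.98, and in TM11 at 2.43, 3.63 and 5.06. Both controls put TM1 first and the *Angpt1*ΔNC library put it last of these 3. Elsewhere *Dpt* was at most 0.335, in cluster 13.

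*Mfap5* was the most abundant of the 6 in TM10, at 22.013, 20.4 and 25.6 UMIs per 10,000, although levels of different genes were not scaled to transcript length because 3′ counts were used. It was also the most widely spread through the stroma, with 7.65, 7.45 and 4.15 in TM7, 4.84, 4.61 and 1.25 in TM4, 3.51, 3.48 and 3.36 in TM11 and 3.15, 2.15 and 2.11 in TM5. A UMI was found in 92.3, 97.0 and 99.5% of TM10 cells and in 1.11, 0.692 and 1.10% of epithelial cells.

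**Figure D1:**
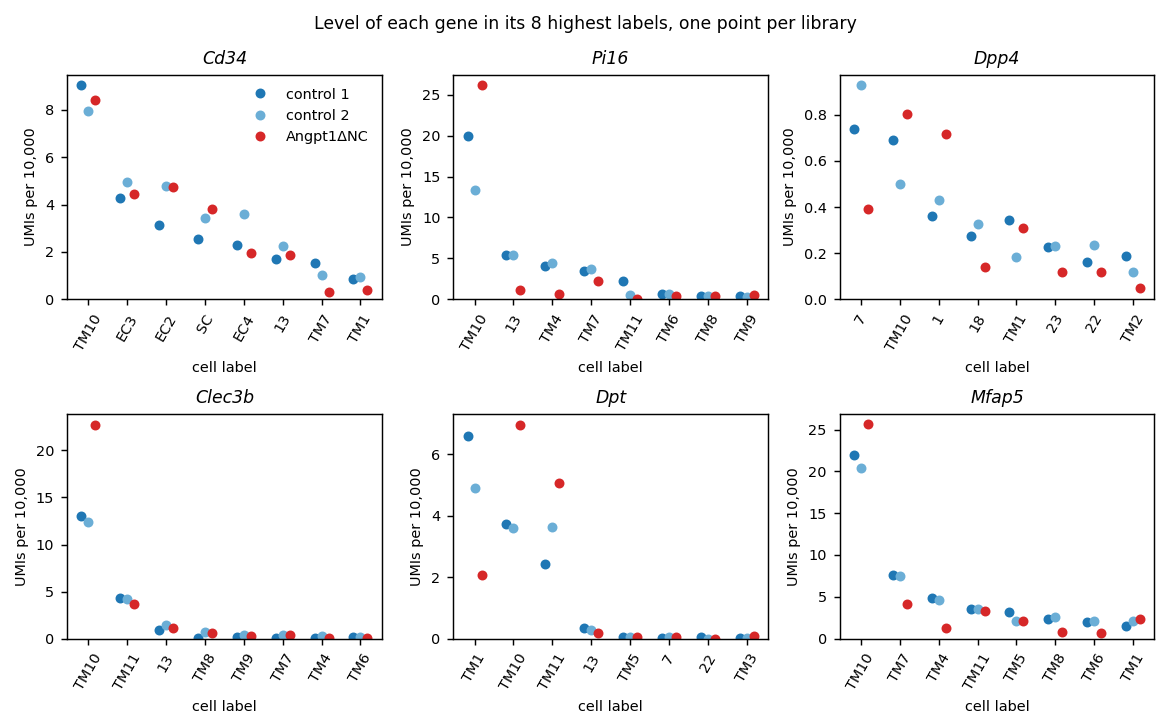
Level of each of the 6 genes (y axis, mean UMIs per 10,000 over cells) in its 8 highest cell labels (x axis), with 1 point per library: controls in blue and *Angpt1*ΔNC in red. *Clec3b*, *Pi16* and *Mfap5* peak in TM10, *Cd34* has a second group of labels in endothelium, *Dpt* is highest in TM1 in both controls, and *Dpp4* stays under 1 UMI per 10,000 in every label.

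TM10 made up 2.14, 1.64 and 2.78% of kept cells in control 1, control 2 and *Angpt1*ΔNC, with exact 95% intervals of 1.85 to 2.46, 1.41 to 1.91 and 2.40 to 3.196%. These few cells held 83.5, 57.6 and 85.9% of all *Clec3b* UMIs. They held 43.9, 27.7 and 80.2% of those of *Pi16*, 31.7, 23.8 and 65.0% of those of *Mfap5*, and 26.9, 27.0 and 70.2% of those of *Dpt*. For *Cd34* the share was 36.2, 26.2 and 59.5%, with a further 25.6, 37.5 and 27.7% in the endothelial labels, and for *Dpp4* it was 16.3, 14.2 and 28.2%. In each of the 6 genes the *Angpt1*ΔNC library had the largest part in TM10. These shares rest on the numbers of cells as well as on levels. Of the TM7 cells, which held 22.5 and 29.7% of *Pi16* and 32.9 and 34.1% of *Mfap5* UMIs in the controls, 667 and 739 were recovered from the controls and 174 from *Angpt1*ΔNC.

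**Figure D2:**
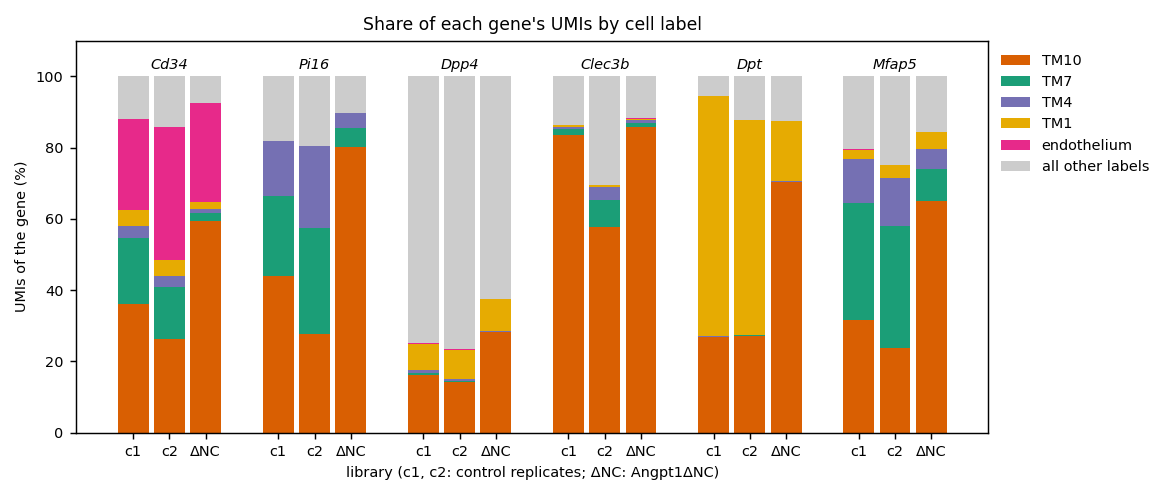
Share of each gene's UMIs (y axis, % of all UMIs of the gene in a library) that lay in TM10, TM7, TM4, TM1, the endothelial labels and all other labels, with 1 bar per library. TM10 holds 80.2% of *Pi16* UMIs in *Angpt1*ΔNC against 43.9 and 27.7% in the controls, and *Dpt* passes from mostly TM1 to mostly TM10.

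Within TM10 most cells had UMIs of several of the genes. With cells thinned to 2000 UMIs (178, 157 and 185 cells deep enough), 59.6, 56.1 and 74.1% had a UMI of at least 4 of the 6 genes, and the median cell had 4 in every library. Such shares also follow from how often each gene was found by itself. *Cd34* and *Mfap5* were found together in 66.3, 66.9 and 70.3% of these cells, against 63.6, 66.7 and 70.1% from multiplying their single shares. For *Cd34* and *Pi16* it was 57.3, 48.4 and 58.4% against 51.7, 42.0 and 52.5%. In TM4 at least 4 were found in 0, 0.303 and 0% of cells, and in TM7 in 0.468, 0.414 and 0%. At least 2 were found in 32.4, 33.3 and 6.49% of TM4 cells and in 46.0, 44.2 and 15.7% of TM7 cells. Leaving out cells with a UMI of *Pecam1*, *Cdh5* or *Ptprc*, genes of endothelial and immune cells, gave at most 74.2% and at least 56.3% for at least 4 in TM10. Nearly all TM10 cells with *Dpp4* also had *Pi16*. All of them had *Mfap5*, which was also found in 85.6, 90.3 and 96.3% of TM10 cells without *Dpp4*. In the controls 18 of 126 and 12 of 90 TM10 cells with *Pi16* also had *Dpp4*, and in *Angpt1*ΔNC 24 of 134 did. Among cells without *Pi16* the counts were 0 of 52, 1 of 67 and 0 of 51, and the zeros allow shares of up to 5.77 and 5.88%. *Dpt* too was more frequent in cells with *Pi16*, at 56.4, 51.1 and 75.4%, than in cells without it, at 36.5, 34.3 and 58.8%. Cells of a library share its preparation and differ in size even at equal depth, and no test was made over them.

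The genotypes were compared on UMIs summed per library within a label, with edgeR's quasi-likelihood test over all genes. The fit has 2 control libraries and 1 *Angpt1*ΔNC library, hence 1 residual degree of freedom, and it assumes that the lone library varies as the controls do. No control cell of the labels tested was typed female, against 57.9% of *Angpt1*ΔNC stromal cells. Outside male-typed cells alone, sex and genotype thus cannot be told apart in these fits. In TM10, 2 of the 6 genes were called, both higher in *Angpt1*ΔNC, where 11.6% of all genes tested were called in either direction. *Clec3b* rose from 13.004 and 12.4 to 22.8 UMIs per 10,000, a log2 change of 0.85 ± 0.23 (SE, adjusted p = 0.0052). *Dpt* rose from 3.74 and 3.60 to 6.98, a log2 change of 0.84 ± 0.22 (adjusted p = 0.0026), but with DESeq2 its adjusted p was 0.15. *Pi16*, with a log2 difference of 0.67 ± 0.24 (adjusted p = 0.053), did not pass the threshold of 0.05, and among 5 alternatives it passed without a filter on low counts (adjusted p = 0.0050). For *Cd34* the difference was -0.04 ± 0.23, for *Mfap5* 0.22 ± 0.25 and for *Dpp4* 0.34 ± 0.24, none of them called. TM10 cells of *Angpt1*ΔNC were deeper, as given above, and the 8 genes of the dissociation stress list summed to 81.9 and 88.5 UMIs per 10,000 in the controls and to 41.5 in *Angpt1*ΔNC. The part of either in these results was not tested.

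In TM4 and TM7 the called genes went down. TM4 had 3 of the 4 tested genes called, against 6.52% of all genes. *Pi16* fell from 4.12 and 4.43 to 0.663 UMIs per 10,000, a log2 change of -2.46 ± 0.23 (adjusted p = 5.9e-06). *Mfap5* fell from 4.84 and 4.61 to 1.25, a change of -1.90 ± 0.22 (adjusted p = 3.8e-05), and *Cd34* from 0.433 and 0.318 to 0.102, a change of -1.87 ± 0.29 (adjusted p = 0.00064). The controls lay close together and the *Angpt1*ΔNC library far below them in each of the 3 genes, and these 3 calls held with DESeq2, other scaling factors, no filter, equal numbers of cells and male-typed cells alone. *Clec3b* in TM4 gave 0.0748, 0.283 and 0.110, where the controls differed more than the genotypes, and *Dpp4* and *Dpt* were too low to test. The 5 trabecular meshwork markers, *Myoc* among them, also differed in TM4, with sums of 132.5, 135.7 and 61.0, and the 5 mural cell markers summed to 18.8, 14.3 and 6.70. Other lists were higher in *Angpt1*ΔNC, the general fibroblast list with 282.5, 318.9 and 472.9, the keratocyte list with 23.8, 28.4 and 41.5, and the corneal endothelium list with 1.14, 1.71 and 3.90. Their part in the result was not tested.

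TM7 had 2 of the 4 tested genes called, against 5.07% of all genes. *Cd34* fell from 1.52 and 1.04 to 0.304 UMIs per 10,000, a log2 change of -1.97 ± 0.30 (adjusted p = 0.010), and *Mfap5* from 7.65 and 7.45 to 4.15, a change of -0.83 ± 0.16 (adjusted p = 0.023). The share of TM7 cells with *Cd34* was 49.9, 41.7 and 12.1%, and 25.7, 18.5 and 3.49% at 2000 UMIs. *Pi16*, with -0.69 ± 0.17, missed the threshold (adjusted p = 0.052) but passed it under 3 of 5 alternatives, with RLE factors (0.031), without a filter (0.0017) and in male-typed cells alone (2.4e-05). In TM7 the trabecular meshwork list summed to 33.1, 43.4 and 11.5, the mural list to 14.8, 13.7 and 8.33, and the stress list to 35.4, 33.4 and 15.7. The general fibroblast list was higher in *Angpt1*ΔNC, with 121.6, 129.8 and 187.8, and the part of these lists in the result was not tested. With equal numbers of cells from each library, 174 each, edgeR called 0 genes in TM7 (1197 at an unadjusted p under 0.05, and 232 called by DESeq2 on all cells). *Cd34* and *Mfap5* then both had an adjusted p of 0.32, at log2 changes of -1.92 and -0.90.

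*Dpt* and TM1 were added to the comparisons after their levels had been seen. In TM1, where 4.79% of all genes were called, *Dpt* fell from 6.61 and 4.90 to 2.06 UMIs per 10,000, a log2 change of -1.47 ± 0.24 (adjusted p = 3.9e-07). *Cd34* fell there from 0.874 and 0.935 to 0.382, a change of -1.22 ± 0.30 (adjusted p = 0.0025). With RLE factors, the only alternative run in TM1, the changes were -1.46 for *Dpt* and -1.22 for *Cd34*. The keratocyte list summed to 193, 221 and 124 in TM1, and its part in the result was not tested.

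Over the 11 stromal labels summed, 8.97% of all genes were called. Of the 6 genes *Clec3b* alone was called, higher by a log2 of 1.36 ± 0.14 (adjusted p = 0.00088), from 1938 and 2232 UMIs among 2803 and 3324 control cells to 4051 among 1946 *Angpt1*ΔNC cells. TM10 made up 6.92, 5.02 and 9.66% of these cells, which enters the sum. With equal numbers of cells the adjusted p of *Clec3b* was 0.11, and 0 genes were called (2753 at an unadjusted p under 0.05, and 628 called by DESeq2 on all cells). The other 5 genes differed by log2 values from -0.22 to 0.54 with none called. Male-typed cells alone gave another picture, with 5 of the 6 called, all higher, where 13.1% of all genes were called and 5.47% were called higher, and *Cd34* turned from -0.08 to 0.76 (adjusted p = 0.012). TM10 cells were 105 of the 595 male-typed stromal cells of *Angpt1*ΔNC, against 132 of 1947 and 106 of 2483 in the controls. TM7 cells were 32 of those 595, against 463 and 547 in the controls. This make-up enters the sum, and its part in the result was not tested. In male-typed TM10 cells the mean level of *Cd34* was 9.65 and 8.04 in the controls and 8.45 in *Angpt1*ΔNC. It was 1.58, 1.08 and 0.36 in TM7 and 0.45, 0.33 and 0.079 in TM4, in the same order. In the endothelial labels summed, where 12.9% of all genes were called, only *Cd34* was high enough to test, and its difference was -0.03 ± 0.16 (adjusted p = 0.95).

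**Figure D3:**
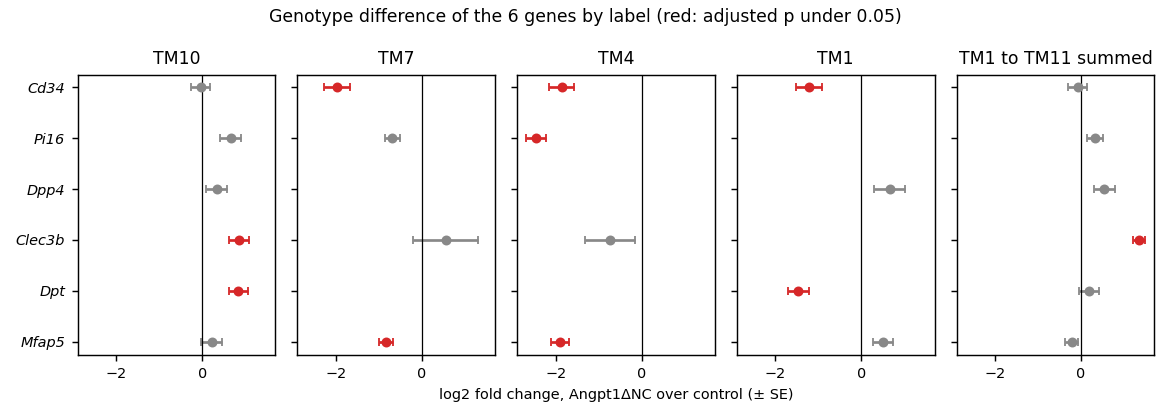
Log2 fold change of *Angpt1*ΔNC over control (x axis, ± SE of the edgeR fit) for the genes tested (y axis) in TM10, TM7, TM4, TM1 and all stromal labels summed, with adjusted p under 0.05 in red. *Pi16*, *Mfap5* and *Cd34* lie at -1.87 to -2.46 in TM4 and at -0.04 to 0.67 in TM10.

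The difference between labels was itself tested, in a comparison added after the separate fits had been seen. The fit took the 3 libraries in both labels, kept the library as a block, and asked whether the genotype difference in TM10 differed from that in the other label. It too has 1 residual degree of freedom and 1 *Angpt1*ΔNC library, so its SE does not measure the spread between *Angpt1*ΔNC pools. Against TM4, 3 of the 6 genes were called, where 2.87% of all genes were. The difference was 3.13 ± 0.25 on the log2 scale for *Pi16* (adjusted p = 6.5e-05), 2.12 ± 0.14 for *Mfap5* (adjusted p = 1.8e-05) and 1.82 ± 0.25 for *Cd34* (adjusted p = 0.0025). Against TM7 the same 3 genes were called, where 3.85% of all genes were, with 1.35 ± 0.21 for *Pi16*, 1.04 ± 0.16 for *Mfap5* and 1.90 ± 0.26 for *Cd34*. Against TM1, where 1.43% of all genes were called, *Dpt* was, with 2.28 ± 0.24 (adjusted p = 0.00076). For *Clec3b* the difference from TM4 was 1.51 ± 0.62 (adjusted p = 0.28) and that from TM7 0.15 ± 0.57 (adjusted p = 0.95). So *Clec3b* and *Dpp4* were not shown to respond differently in TM10.

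Male and female mice of the *Angpt1*ΔNC pool could be told apart by cell, which gives values from different animals of 1 library. A cell was typed male when it had Y-linked but no *Xist* UMIs, and female in the opposite case. Male-typed cells made up 55.9% of TM10, 40.2% of TM4 and 18.4% of TM7 in *Angpt1*ΔNC. In TM4, *Pi16* was at 0.212 ± 0.069 UMIs per 10,000 in 125 male-typed cells and at 1.21 ± 0.24 in 143 female-typed cells (SE over cells, which are not replicates). Both were below the male-typed cells of the controls. In TM7 it was at 0.705 ± 0.32 in 32 male-typed and 2.60 ± 0.40 in 125 female-typed cells. In TM10 it was at 29.1 ± 3.3 in 105 male-typed and at 22.8 ± 4.4 in 53 female-typed cells. *Clec3b* in TM10 was at 22.01 and 25.7 and *Dpt* at 6.77 and 7.15, all above the male-typed cells of both controls. The controls held no female-typed cells in these labels. For the female-typed cells, sex and genotype therefore cannot be told apart. In the comparison of male-typed cells alone, *Pi16* in TM4 differed by -4.13 ± 0.31 and in TM7 by -2.09 ± 0.28 on the log2 scale (adjusted p = 4.3e-07 and 2.4e-05).

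**Figure D4:**
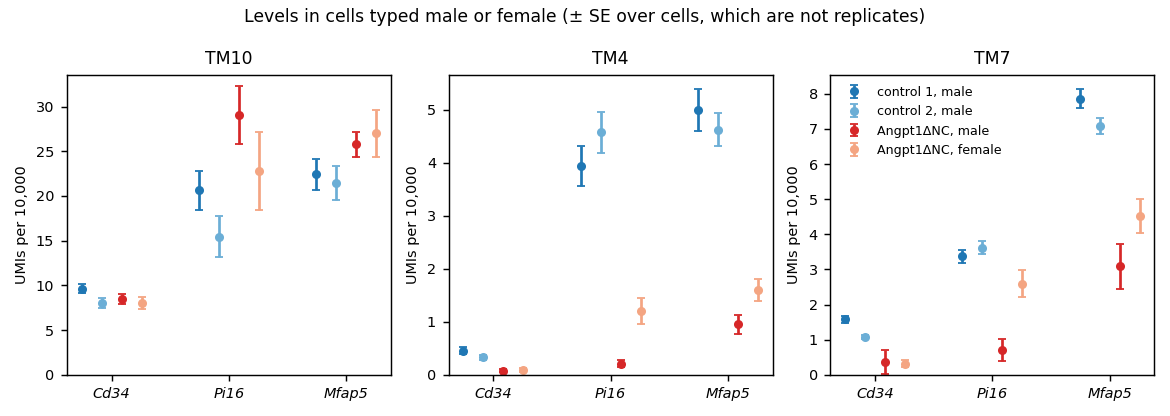
Levels of *Cd34*, *Pi16* and *Mfap5* (y axis, mean UMIs per 10,000 ± SE over cells) in TM10, TM4 and TM7, for male-typed cells of both controls (blue) and male- and female-typed cells of *Angpt1*ΔNC (red and light red). In TM4 the *Pi16* level of male-typed *Angpt1*ΔNC cells is 0.212 and that of female-typed cells 1.21, both below the controls.

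The other genes of adventitial fibroblasts did not move as 1 group. Of 24 further genes, all were tested in TM10, with 4 called higher and 5 lower in *Angpt1*ΔNC (11.6% of all genes were called) and a median log2 difference of -0.14, against -0.02 over all genes. The 4 that rose were *Creb5*, a transcription factor, by 1.66 ± 0.21, *Thy1*, a fibroblast surface protein, by 1.14 ± 0.22, *Anxa3*, an annexin, by 1.11 ± 0.21 and *Ackr3*, a decoy receptor for CXCL12, by 0.82 ± 0.22. The 5 that fell were *Col15a1*, a basement membrane collagen, with -2.12 ± 0.32, *Penk*, the proenkephalin gene, with -1.86 ± 0.25, *Has1*, a hyaluronan synthase, with -1.15 ± 0.25, *Cd55*, a complement inhibitor, with -0.99 ± 0.24 and *Pdgfra*, a growth factor receptor of fibroblasts, with -0.72 ± 0.23. Of those not called, the most abundant in control TM10 cells were *Igfbp6*, an insulin-like growth factor binding protein, *Ly6a*, the surface protein Sca-1, *Col14a1*, a fibril-associated collagen, and *Fbn1*, with mean levels of 30.3, 28.2, 8.77 and 6.86 UMIs per 10,000. In TM4, 19 were tested, with 0 called higher and 4 lower, where 6.52% of all genes were called. *Has1* fell there too, with -2.69 ± 0.42. In TM7, 20 were tested, with 3 called higher and 3 lower against 5.07% of all genes, and over all stromal labels 7 were called higher and 1 lower of 24 against 8.97%. In the endothelial labels 8 were called higher and 0 lower of 16 tested, against 12.9% of all genes. These labels held 46, 63 and 15 cells of Schlemm's canal in control 1, control 2 and *Angpt1*ΔNC. They held 3, 1 and 12 cells of the lymphatic label LEC. The part of this make-up in the result was not tested.

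Over 34 labels with at least 20 control cells, *Pi16* and *Clec3b* had the most similar profiles of any pair of the 6, with a Pearson correlation of log2 levels of 0.83. *Pi16* and *Mfap5* followed with 0.80, and *Dpp4* and *Cd34* were at -0.01. Among 7321 genes compared, the most like *Clec3b* were *Sfrp4*, a secreted Wnt antagonist, with 0.92, *Scara5*, a ferritin receptor, with 0.90, and *C7*, a complement component, with 0.90, followed by *Lrrc17* and *Podn* with 0.88 and 0.86. *Pi16* was closest to *Scara5* and *Igfbp6* with 0.86 and 0.85, ahead of *Tspan11*, *Clec3b* and *Thbs3* with 0.83 each. *Dpt* was closest to *Smoc2*, a matricellular protein, with 0.96, and *Twist2*, a basic helix-loop-helix factor, with 0.91, then *Masp1*, *Dpep1* and *Cnmd* with 0.83 to 0.84. *Mfap5* was closest to *Bicc1* with 0.88, then *Igsf10* and *Fbn1*, the fibrillin of its own microfibrils, with 0.85 each, and *C1qtnf2* and *Gpx7* with 0.84 each. *Cd34* was closest to *Xdh* and *Heg1* with 0.83 and 0.81, then *Ly6c1*, *Ltbr* and *Ramp2* with 0.79 to 0.80. *Dpp4* had the weakest neighbours, *Bdh2*, *Pdk1* and *Spock1* with 0.63 and *Tmem108* and *Bmp7* with 0.60. The labels share libraries, and by rank (Spearman) correlation 2 of the 30 pairs of gene and neighbour stayed among the 5 closest.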

How the data were processed

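The authors deposited raw UMI counts per gene and cell, made with Cell Ranger on mm10 (2.1.1 in the submitters' notes, 3.0.2 in the file headers), and a table of cluster labels made with Seurat 3.1.3 after doublets had been removed. The cells they kept and their labels were used as deposited. Only the cell names and labels were read from the tables of labels, and their other values were not used here. Levels, shares with exact Clopper-Pearson 95% intervals, and thinning to 1000 or 2000 UMIs (seed 20) were computed with Python 3.11.15, numpy 2.4.6, pandas 2.3.3 and scipy 1.17.1. Library sums were tested with edgeR 4.0.16 in R 4.3.3 (TMM factors, filterByExpr, Benjamini-Hochberg adjustment over all genes of a fit), checked on simulated counts, with DESeq2 1.42.0, RLE factors, no filter, equal numbers of cells, male-typed cells and leaving out each control as alternatives. Tests of TM1, of differences between labels and by typed sex were added after seeing the data. Of the alternatives, TM1 was run with RLE factors only. For differences of TM10 from TM4 and TM7, only leaving out a control was tried. Named genes were the 6 members, the 5 genes nearest to each by correlation over labels, and, of 24 further adventitial genes, those called in TM10 and the 4 others with the highest control level there, beside *Angpt1*, *Xist* and label markers. The members and lists were chosen with earlier results of these data known. Figures were drawn with matplotlib 3.10.9.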

Additional observations from a re-analysis of the deposited data

Results flagged for a closer look

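The genotype difference in TM10 was tested against that in each other label, over the same 3 libraries. Of the 6 genes, 3 were called against TM4, 3 against TM7 and 1 against TM1. The shares of all genes called were 2.87, 3.85 and 1.43%. Not called were *Cd34* (1.17 ± 0.29) and *Mfap5* (-0.36 ± 0.30) against TM1. Nor was *Dpt* called against TM4 (-0.42 ± 0.74) or TM7 (4.83 ± 2.35). The log2 difference in TM10 exceeded that in TM4 by 3.13 for *Pi16*, by 2.12 for *Mfap5* and by 1.82 for *Cd34*. It exceeded that in TM7 by 1.35 for *Pi16*, by 1.04 for *Mfap5* and by 1.90 for *Cd34*, and that in TM1 by 2.28 for *Dpt*. With either control library left out, which allows no test, these differences for *Pi16* were 2.75 to 3.47 against TM4 and 1.10 to 1.61 against TM7. The comparisons were chosen after the separate results were seen, and their cause was not tested.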

How the results depend on the processing

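The *Pi16*, *Mfap5* and *Cd34* calls in TM4 and the *Clec3b* call in TM10 kept direction and call under each of 5 alternatives, while both TM7 calls were lost with equal numbers of cells. Over all genes, DESeq2 called 628 rather than 1251 in the summed stroma, 143 rather than 986 in TM10, 232 rather than 545 in TM7, 161 rather than 680 in TM4 and 257 rather than 1250 in endothelium. Without a filter on low counts 2441 were called in the stroma and 1351 in TM7, and with RLE factors 854 in TM7. With equal numbers of cells 276 were called in TM4, and 0 in the stroma and TM7 (2753 and 1197 at an unadjusted p under 0.05). Among the 6 genes, equal numbers left 0 called in the stroma and TM7, and male-typed cells gave 5 in the stroma. DESeq2 gave 1 in TM10, and no filter gave 1 in endothelium (*Clec3b*, adjusted p = 0.049). In male-typed stroma *Cd34* turned to 0.76 and *Mfap5* to 0.43, and *Clec3b* in male-typed TM7 cells turned to -2.73. That last value rests on 1 *Clec3b* UMI in 32 *Angpt1*ΔNC cells, against 18 and 168 UMIs in 463 and 547 control cells. *Pi16* gained a call in TM7 under 3 alternatives and in TM10 under 1. The cause was not tested.

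As control means in TM10, ratios of summed UMIs gave 13.5 for *Clec3b*, 4.10 for *Dpt* and 23.6 for *Mfap5* per 10,000. Shares of cells with a UMI after thinning to 1000 and 2000 UMIs were 55.0 and 73.1% for *Cd34*, 46.5 and 64.1% for *Pi16*, 6.09 and 9.20% for *Dpp4*, 61.6 and 77.7% for *Clec3b*, 29.6 and 47.3% for *Dpt*, and 77.9 and 89.1% for *Mfap5*. With labels weighted equally, TM10 held 48.1% of *Pi16*, 28.2% of *Dpt* and 40.9% of *Mfap5*. TM10 was 6.92, 5.02 and 9.66% of stromal cells, and 78.9, 77.25 and 90.4% of its unthinned cells had 4 or more genes. By Spearman correlation 2 of 30 neighbours kept their place.

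Leaving out a control leaves no residual degrees of freedom and gave no count of calls. *Clec3b* then ranged from -1.41 to 0.90 in TM4 and from -0.15 to 2.08 in TM7, its level being lower in control 1 there. No paired analysis was possible because no label ties a control library to the *Angpt1*ΔNC library. With 1 *Angpt1*ΔNC pool, genotype and pool cannot be told apart.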

Other observations

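Cluster 13, which was in none of the genotype tests, held 165, 165 and 64 cells in control 1, control 2 and *Angpt1*ΔNC. *Pi16* was at 5.36, 5.44 and 1.17 UMIs per 10,000 there and *Mfap5* at 1.28, 1.14 and 3.98, so these genes lay on opposite sides of the controls, while *Cd34* at 1.71, 2.25 and 1.88 lay between them. In TM11, with 27, 46 and 49 cells, *Pi16* was at 2.26, 0.534 and 0.0864 and *Mfap5* at 3.51, 3.48 and 3.36. The *Pi16* values there rest on 4, 3 and 2 cells with a UMI. Outside TM10 the controls differed from each other in *Clec3b*, which stood in TM8 at 0.0555 in control 1 and 0.697 in control 2, against 0.631 in *Angpt1*ΔNC.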
